A study of Mus musculus with 3 samples.

Results

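Of 2436 thymocytes sorted as CD4 single positive (CD4 SP), 203 were placed by the authors' clustering in cluster 0, which is 8.33% of them (exact 95% interval 7.27 to 9.50) and 203 of the 12208 cells in all. The members were chosen by their hashtag and their cluster number in the deposited cell table. They were set beside the 790 Foxp3lo TRP cells of the same cluster and beside the 933 CD4 SP cells of cluster 1 and the 910 of cluster 2, which hold most CD4 SP cells. TRP stands for Treg progenitor, a thymocyte on the way to becoming a regulatory T cell (Treg).

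All cells came from 1 pool of thymi from 8 female mice aged 7 to 12 weeks. The mice were C57BL/6 (entered in the labels as C56Bl/6), carried the TCliβ receptor β chain transgene and a Foxp3-GFP reporter, and were TCRα+/-. Cells of every population were sorted as Vα2+, and each of 6 populations got its own hashtag. Besides CD4 SP and double positive (DP) cells these were the CD25+ and the Foxp3lo TRP, and Treg cells without (CD73-) or with (CD73+) CD73. The labels give 1 gate, for live CD4+ cells negative for CD8, CD73, CD25 and FOXP3, and thymus was depleted of CD8+ cells except for DP. The mouse a cell came from is not known, so each population is 1 sample: no test between groups was possible, no p-value is given, and all intervals cover counting error only. Cells of 1 clone share a receptor and are not independent. A difference is called apart only where the 95% intervals of both groups do not overlap.

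A T cell receptor α chain is made in the DP thymocyte by joining 1 V segment (TRAV) to 1 J segment (TRAJ), and the codons across the join form the CDR3, the loop that touches the presented peptide. Joining can continue on the same allele, moving to TRAV segments further upstream and TRAJ segments further downstream, where the low TRAJ numbers lie. With a fixed β chain and 1 functional α allele, the α chain is the main part of the receptor that differs between these cells. The Vα2 protein is encoded by the TRAV14 family, and all 132 member cells with an α chain read 1 of its copies.

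The α chains that the results turn on are shown as nucleotides, 5′ to 3′, in lower case. Capitals mark bases outside the unbroken match to germline V from the 5′ end and to germline J from the 3′ end. The first chain shown was the most frequent CDR3 of the members. Of its 13 member cells, 11 carried the version without any capital. The other 2 carried the next version.
Frequent TRAJ13 CDR3: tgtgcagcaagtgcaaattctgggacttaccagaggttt
Frequent TRAJ13 CDR3, other version: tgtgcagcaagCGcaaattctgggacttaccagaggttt
These further TRAJ13 chains of members, each carried by 1 cell in the version shown, show how the same J segment was joined at other bases.
TRAJ13 chain b: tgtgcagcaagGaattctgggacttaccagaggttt
TRAJ13 chain c: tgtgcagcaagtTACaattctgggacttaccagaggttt
TRAJ13 chain d: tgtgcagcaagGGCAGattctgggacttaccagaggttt
TRAJ13 chain e: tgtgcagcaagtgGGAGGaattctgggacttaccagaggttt
TRAJ13 chain f: tgtgcagcaagtAggacttaccagaggttt
The last set holds chains that were among the 3 most frequent in a comparison group, each in 1 version carried there.
Frequent TRAJ23 CDR3, Foxp3lo TRP of cluster 0: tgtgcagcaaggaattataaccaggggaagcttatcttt
TRAJ32 chain of 15 residues, Foxp3lo TRP of cluster 0: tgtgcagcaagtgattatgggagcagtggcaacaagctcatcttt
Frequent TRAJ12 CDR3, CD4 SP of cluster 1: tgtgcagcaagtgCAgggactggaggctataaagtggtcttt
Other TRAJ32 chain of 15 residues, CD4 SP of cluster 1: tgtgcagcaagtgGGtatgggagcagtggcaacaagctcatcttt
Frequent TRAJ57 CDR3, CD4 SP of cluster 2: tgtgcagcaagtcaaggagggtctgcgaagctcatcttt

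TRAJ13 was the J segment that members used most, at 26 of 132 cells or 19.7% (13.3 to 27.5). The share was 10.0% (7.36 to 13.2) in Foxp3lo TRP cells of cluster 0, 7.21% (5.42 to 9.38) in CD4 SP cells of cluster 1 and 12.3% (10.0 to 14.98) in those of cluster 2. The member interval lay above that of cluster 1, just cleared that of the Foxp3lo TRP cells, from 13.2886 against 13.1916, and overlapped that of cluster 2. TRAJ13 was the 1 segment apart from the Foxp3lo TRP cells, 2.56% of 39 segments tested. It was 1 of 2 apart from cluster 1, 5% of 40 segments, and none was apart from cluster 2, 0% of 42. In GRCm38 TRAJ13 lies on chromosome 14, plus strand, from 54205741 to 54205797.

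The groups differed in depth, so TRAJ13 use was also taken at matched depth. Among cells of 1500 to under 2500 UMIs (unique molecular identifiers, counted transcripts), TRAJ13 was used by 21.3% of members (13.5 to 30.9), 10.5% of Foxp3lo TRP cells (7.19 to 14.6), 12.5% of cluster 1 cells (8.18 to 18.0) and 15.2% of cluster 2 cells (11.2 to 19.9). The members kept the highest value, all 4 intervals overlapped, and the value of cluster 1 was higher than over all its cells. Within the members TRAJ13 was used by 16.7% of cells below their median UMI count (8.62 to 27.9) and 22.7% at or above it (13.3 to 34.7). These intervals overlapped, as did those of cluster 1 over all cells and at matched depth. The part of depth in the TRAJ13 difference was not tested.

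**Figure D1:**
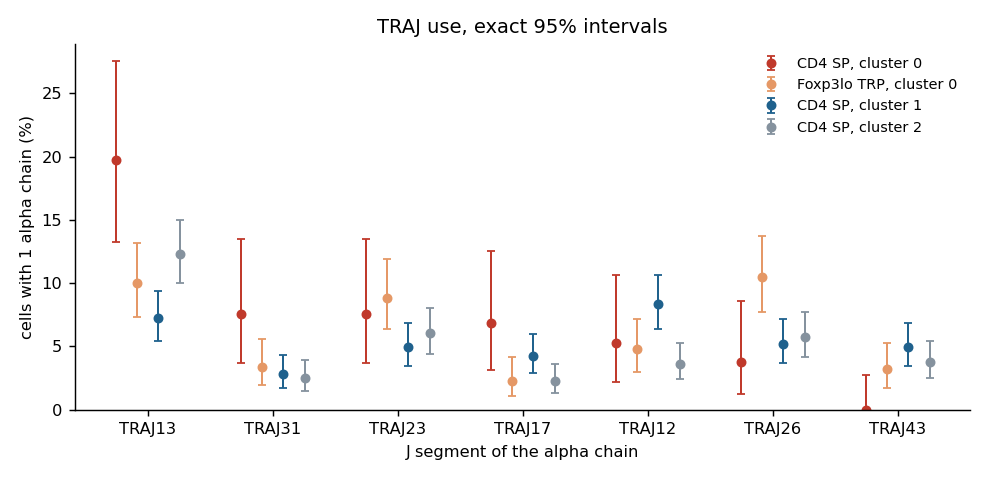
TRAJ use as the percent of cells with exactly 1 productive α chain (vertical axis) for the 5 segments members used most and for TRAJ26 and TRAJ43 (horizontal axis); points are the 4 groups and bars exact 95% intervals. Members reach 19.7% for TRAJ13, and no member used TRAJ43.

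TRAJ43 was the second segment apart from cluster 1: 0 of 132 members used it (exact upper bound 2.76%, with 2.27% for 3 cells), against 4.95% of cluster 1 cells (3.47 to 6.82). It was used by 3.18% of Foxp3lo TRP cells and 3.79% of cluster 2 cells, and both intervals overlapped that of the members. With each different CDR3 counted a single time, or in cells of 1500 to under 2500 UMIs, TRAJ43 was no longer apart from cluster 1. TRAJ43 lies on the upstream side of the J cluster, at 54174742 to 54174798. J segments numbered 40 or higher, which lie on that side, were used by 10.6% of members (5.92 to 17.2), 14.3% of Foxp3lo TRP cells, 19.0% of cluster 1 cells (16.1 to 22.0) and 18.2% of cluster 2 cells, with overlapping intervals.

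After TRAJ13 the members used TRAJ31 and TRAJ23 in 10 cells each, 7.58%, then TRAJ17 in 9 cells, 6.82%, and TRAJ12 in 7 cells, 5.30%. Of these, TRAJ31 was at 2.52% to 3.41% and TRAJ17 at 2.24% to 4.24% in the comparison groups, and no interval was apart. TRAJ12 was at 8.35% in cluster 1, where the TRAJ12 CDR3 shown was frequent. TRAJ26, named after its values were seen, was used by 3.79% of members (1.24 to 8.62) and 10.5% of Foxp3lo TRP cells (7.76 to 13.7), with overlapping intervals. Across CD4 SP clusters with at least 40 α chains, TRAJ13 use was 22.5% in cluster 12 (9 of 40 cells), 19.7% in cluster 0, 13.1% in cluster 10, 12.3% in cluster 2, 9.30% in cluster 5, 7.21% in cluster 1 and 3.03% in cluster 11 (3 of 99 cells). In that order each interval overlapped that of the cluster next to it. In cluster 0 TRAJ13 was used by 13 of 125 CD25+ TRP cells, 5 of 54 CD73- Treg cells and 10 of 107 CD73+ Treg cells, at 10.4%, 9.26% and 9.35%.

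Of the 26 TRAJ13 cells among the members 13 shared the frequent TRAJ13 CDR3, and the other 13 held 12 further CDR3s. In all, the 26 cells held 13 CDR3s, counted by amino acid sequence, from 15 nucleotide sequences and 5 assigned V copies, and 11 cells had no base outside germline V and J. Without the frequent TRAJ13 CDR3, TRAJ13 was used by 10.9% of members (5.95 to 18.0), 5.26% of Foxp3lo TRP cells (3.33 to 7.86), 2.81% of cluster 1 cells (1.70 to 4.36) and 6.44% of cluster 2 cells (4.70 to 8.57); the members were then apart from cluster 1 and from no other group. With each different CDR3 counted a single time, the share was 11.7% in members (6.39 to 19.2), 4.92% in Foxp3lo TRP cells (2.78 to 7.98), 3.23% in cluster 1 (1.73 to 5.45) and 5.36% in cluster 2 (3.50 to 7.82), again apart from cluster 1 alone.

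The frequent TRAJ13 CDR3 was carried by 13 members, 9.85% (5.35 to 16.3). It was found in 22 Foxp3lo TRP cells of cluster 0 at 5.00% (3.16 to 7.47), in 32 cells of cluster 1 at 4.53% (3.12 to 6.33) and in 45 of cluster 2 at 6.31% (4.64 to 8.35). Of these 4 groups the members had the highest value, with an interval that overlapped those of the other 3. Among smaller CD4 SP clusters it was carried by 7 of 40 cells of cluster 12, 17.5% (7.34 to 32.8), and 8 of 84 of cluster 10, 9.52% (4.20 to 17.9). In the other populations of cluster 0 it was carried by 8 of 125 CD25+ TRP cells, 1 of 54 CD73- Treg cells and 2 of 107 CD73+ Treg cells. Its contigs in members held a median of 19 UMIs, against 14 for the other member chains.

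The V copy assigned to this CDR3 differed between the groups. TRAV14D-3-DV8 was assigned to 10 of 13 member chains, 76.9% (46.2 to 94.96), to 22 of 22 in Foxp3lo TRP cells (lower bound 84.6%), to 4 of 32 in cluster 1, 12.5% (3.51 to 29.0), and to 24 of 45 in cluster 2, 53.3% (37.9 to 68.3). Members were apart from cluster 1 and overlapped the other groups. In cluster 1 the copy assigned most was TRAV14N-2, at 21 of 32 chains or 65.6% (46.8 to 81.4), which took 2 of 13 in members. Most cluster 1 chains with this CDR3 were thus assigned to a V copy other than TRAV14D-3-DV8. In cells of 1500 to under 2500 UMIs, TRAV14D-3-DV8 took 7 of 10 member chains, 70.0% (34.8 to 93.3), and 1 of 18 in cluster 1, 5.56% (0.141 to 27.3), still apart. This comparison was chosen after its values were seen.

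The 9 TRAV14 copies compared in the reference were 92.6% to 100% identical over their last 270 bases, and 2 of 36 pairs did not differ there. TRAV14D-3-DV8 and TRAV14N-2 differed at 18 of 270 bases, while TRAV14N-2 and TRAV14D-2 were identical, so an assignment to TRAV14N-2 could not be told from TRAV14D-2 over this stretch. Which bases each contig covered is not in the files used here.

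**Figure D2:**
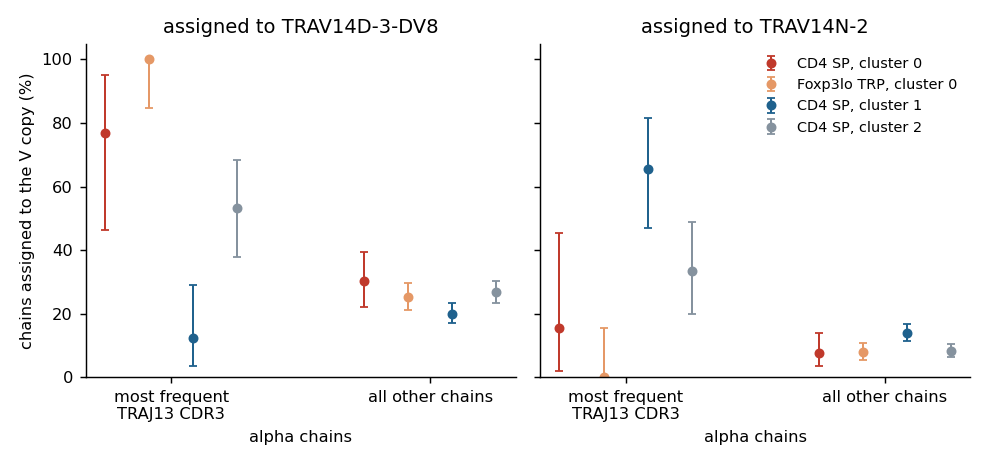
Percent of α chains assigned to TRAV14D-3-DV8 (left) or TRAV14N-2 (right) on the vertical axis, for the most frequent TRAJ13 CDR3 and for all other chains, in the 4 groups, with exact 95% intervals. For the frequent CDR3, members stand at 76.9% and cluster 1 at 12.5% for TRAV14D-3-DV8, and for all other chains at 30.3% and 20%.

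Over all member chains TRAV14D-3-DV8 was the copy used most, at 34.8% (26.8 to 43.6), and TRAV14-3 was rare, at 2 of 132 cells or 1.52% (0.184 to 5.37). In cluster 1 these were 19.7% (16.8 to 22.8) and 8.20% (6.29 to 10.5), both apart from the members, 22.2% of the 9 TRAV genes read in either group. Against the Foxp3lo TRP cells 0% of 9 TRAV genes were apart, and against cluster 2 0% of 10. Of these genes 8 were TRAV14 copies in each comparison, and the rest were genes of other families read in the comparison groups alone. TRAV14D-3-DV8 was at 28.9% and 28.5% there, and TRAV14-3 at 5.00% and 7.01%. The further copies were TRAV14-1 at 18.9%, TRAV14N-1 at 18.2%, TRAV14N-3 at 10.6% and TRAV14N-2 at 8.33% of members. With each different CDR3 counted a single time no copy was apart from cluster 1. In cells of 1500 to under 2500 UMIs neither of these copies was apart, and TRAV14N-2 was. In GRCm38, TRAV14D-3-DV8 lies on chromosome 14 from 53078452 to 53079045 and TRAV14-3 from 53763173 to 53763694.

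The other CDR3s named were picked for being frequent in a comparison group, so a lower share elsewhere was built in. They were rare in the members, and some were rare in other comparison groups too. The TRAJ12 CDR3 was carried by 30 cells of cluster 1, 4.24% (2.88 to 6.00), and 1 member. The TRAJ32 chain of 15 residues shown for cluster 1 was carried by 19 cells there, 2.69%, and 0 members. In Foxp3lo TRP cells the TRAJ23 CDR3 was carried by 10 cells and the TRAJ32 chain shown for that group by 11, against 1 member each. The TRAJ57 CDR3 was carried by 15 cells of cluster 2, 10 of cluster 1, 1 Foxp3lo TRP cell and 1 member. With 132 member chains none of these shares had an interval apart from that of the members.

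The members' repertoire was broad: 132 chains held 111 different CDR3s, of which 102 were seen in a single member. Besides the frequent TRAJ13 CDR3, a TRAJ31 CDR3 was found in 3 cells and 7 CDR3s in 2 cells each, 3 of them made with TRAJ17. Rarefied to 132 chains, the expected number of different CDR3s was 109.8 in Foxp3lo TRP cells, 103.5 in cluster 1 and 111.2 in cluster 2, against 111 in members. By nucleotide sequence, V and J, the members had 117 clonotypes, against 120.7, 119.5 and 121.9, so the order of members and cluster 1 turned with the definition of a clonotype.

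The CDR3 itself had a median of 13 residues in members, Foxp3lo TRP cells and cluster 2 and of 14 in cluster 1. No base outside germline V and J was found in 22.0% of member chains (15.2 to 30.0), against 15.3%, 15.9% and 20.1% in Foxp3lo TRP cells, cluster 1 and cluster 2. Without the frequent TRAJ13 CDR3 the shares were 15.1% in members and 11.5%, 12.6% and 15.2% in the 3 groups. A net negative charge was rare in members, at 3 of 132 chains or 2.27% (0.471 to 6.50), against 9.48% in cluster 1 (7.42 to 11.9). It was the only content feature apart from any of the 3 groups. The features examined were of length, charge, residues and bases outside germline. Net negative charge was not apart with each different CDR3 counted a single time, at 2.70% and 7.44%. At least 2 hydrophobic residues among the middle 4 positions, the part of the loop nearest the peptide, were found in 13.6% of member chains (8.29 to 20.7) and 24.5% of Foxp3lo TRP chains (20.6 to 28.8), with intervals that overlapped narrowly.

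Members shared CDR3s with every other population. The sets searched held 1266 DP, 1783 CD25+ TRP, 223 CD73- Treg and 1057 CD73+ Treg cells with exactly 1 α chain. Shares were not adjusted for the size of the set. Of 132 member cells 31.1% had a CDR3 also found in DP cells, 51.5% in CD25+ TRP cells, 18.2% in CD73- Treg cells and 31.1% in CD73+ Treg cells. In the same order the shares were 29.1%, 56.4%, 26.6% and 37.7% for Foxp3lo TRP cells of cluster 0, 38.3%, 61.0%, 12.3% and 29.6% for cluster 1 and 36.0%, 57.5%, 15.6% and 31.7% for cluster 2. For all 4 populations the members' interval overlapped that of each group. The members' value for CD73- Treg cells (12.0 to 25.8) lay between that of cluster 1 (9.97 to 14.96) and that of Foxp3lo TRP cells (22.5 to 31.0). Without the frequent TRAJ13 CDR3 the members' value was 9.24% (4.71 to 15.9), with 8.15% in cluster 1 and 9.88% in cluster 2. The value of Foxp3lo TRP cells was 22.7% (18.8 to 27.1), then apart from the members. That CDR3 was carried by 13 members, and leaving it out took the CD73- Treg set from 223 to 222 cells. Much of the 18.2% in members thus came from a CDR3 that was rare among CD73- Treg cells.

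**Figure D3:**
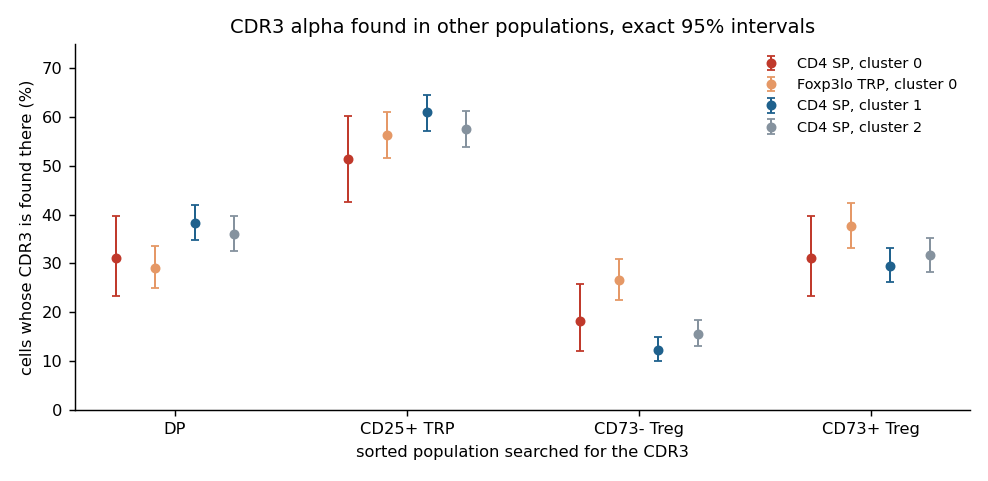
Percent of cells (vertical axis) whose CDR3 was also found in the sorted population named on the horizontal axis, for the 4 groups, with exact 95% intervals. Members range from 18.2% for CD73- Treg cells (223 cells searched) to 51.5% for CD25+ TRP cells (1783 cells searched). Their intervals overlap those of the other groups throughout.

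Morisita's index weighs the overlap of 2 repertoires by frequency, with 0 for none and about 1 for equal frequencies. It was 0.912 between members and cluster 2, 0.798 with Foxp3lo TRP cells of cluster 0 and 0.650 with cluster 1. The frequent TRAJ13 CDR3 carried much of it: without that CDR3 the values were 0.720, 0.622 and 0.374. With clonotypes set by nucleotide sequence, V and J, they were 0.824, 0.870 and 0.319. In cells of 1500 to under 2500 UMIs the value by CDR3 was 1.03 with cluster 2, 0.84 with Foxp3lo TRP cells and 1.01 with cluster 1. These values keep the frequent TRAJ13 CDR3, carried there by 10 of 94 members and 18 of 192 cluster 1 cells. At that depth the index was taken neither without this CDR3 nor by nucleotide sequence, V and J. Whether the low overlap with cluster 1 under those settings holds at matched depth was thus not tested. In all, 87 of 132 member cells, 65.9%, had a CDR3 found in some other cell with exactly 1 α chain. The remaining 45 cells carried a CDR3 found in no other such cell. Cells with more than 1 α chain were not searched.

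Members were shallow cells, like the rest of cluster 0. Their median was 1958 UMIs (quartiles 1531 to 2290, range 586 to 3523), against 1930.5 (1621 to 2342.75) in Foxp3lo TRP cells of cluster 0, 2925 (2436 to 3549) in cluster 1 and 2652 (2222.25 to 3143.75) in cluster 2. The upper quartile of members lay below the lower quartile of cluster 1. The shallow tail was longer in members: 18 of 203 members and 19 of 790 Foxp3lo TRP cells lay below 1000 UMIs. Within each population except DP, cluster 0 cells had fewer UMIs than the cells of other clusters: 1958 against 2802 in CD4 SP, 2161 against 3330 in CD25+ TRP, 1930.5 against 2338 in Foxp3lo TRP, 2136 against 2713 in CD73- Treg and 2007 against 2755.5 in CD73+ Treg. Members had a median of 962 detected gene rows per cell, Foxp3lo TRP cells 960, cluster 1 1231 and cluster 2 1254. Thinned to 1000 UMIs per cell, which left out 18 members, 19 Foxp3lo TRP cells, 0 cells of cluster 1 and 5 of cluster 2, the medians were 584, 585, 561 and 609, so at equal depth cluster 1 had the fewest. No member had over 5000 UMIs, against 43 cells of cluster 1.

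Exactly 1 productive α chain was found in 65.0% of members (58.0 to 71.6), 55.7% of Foxp3lo TRP cells (52.2 to 59.2), 75.8% of cluster 1 cells (72.9 to 78.5) and 78.4% of cluster 2 cells (75.5 to 81.0). In cells of 1500 to under 2500 UMIs, which are 128 members, 497 Foxp3lo TRP cells, 257 cluster 1 cells and 365 cluster 2 cells, it was 73.4% (64.9 to 80.9), 57.5% (53.1 to 61.9), 74.7% (68.9 to 79.9) and 77.5% (72.9 to 81.7). At matched depth the members overlapped both CD4 SP clusters and were apart from the Foxp3lo TRP cells of cluster 0. Among the other populations of cluster 0 the share at that depth was 69.9% in CD25+ TRP cells (60.1 to 78.5), which overlapped the members, 44.1% in CD73- Treg cells (31.2 to 57.6) and 47.0% in CD73+ Treg cells (38.2 to 55.8). Members with an α chain had a median of 2049 UMIs and those without 1739. A second productive α chain was found in 0 of 203 members (exact upper bound 1.80%, with 1.48% for 3 cells). It was found in 2.53% of Foxp3lo TRP cells (1.55 to 3.88), which overlapped the members. The share was 3.64% in cluster 1 (2.54 to 5.06) and 4.29% in cluster 2 (3.07 to 5.81), both apart from the members. The low value was not particular to members within cluster 0. There a second chain was read in 1 of 239 CD73+ Treg cells, against 0 of 180 for CD25+ TRP and 0 of 103 for CD73- Treg. These counts include cells without any α chain and were not matched for depth. Member chains held a median of 14 UMIs, against 13, 19 and 19.

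**Figure D4:**
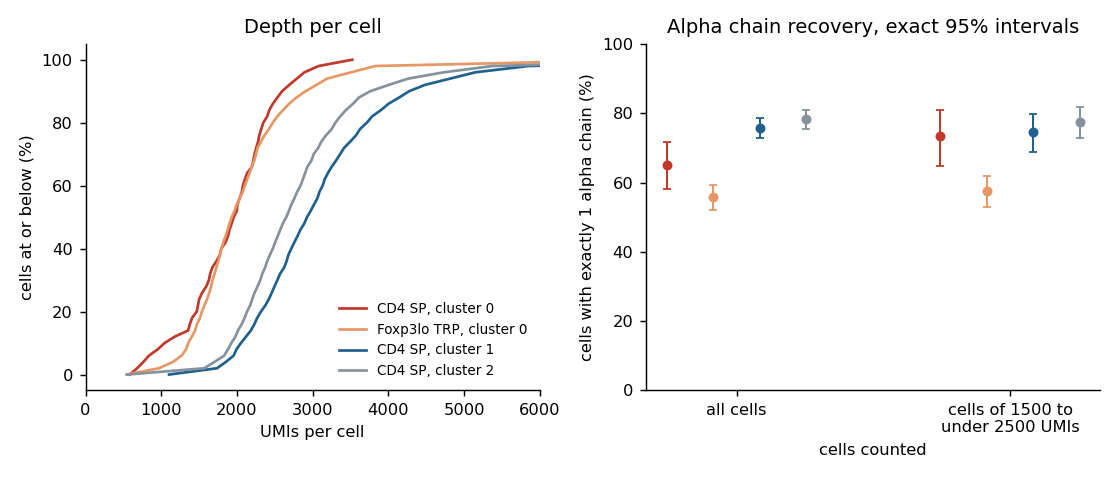
Left, cumulative percent of cells (vertical axis) by UMIs per cell (horizontal axis) in the 4 groups; right, percent of cells with exactly 1 productive α chain, over all cells and over those of 1500 to under 2500 UMIs, with exact 95% intervals. The median depth of members, 1958 UMIs, is near that of Foxp3lo TRP cells, 1930.5, with a longer tail of shallow cells, and their recovery at matched depth, 73.4%, lies beside that of both CD4 SP clusters.

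Summed expression put the members nearest to the Foxp3lo TRP cells of their own cluster. The clusters were formed from these counts, so this is a description. UMIs were summed per group and scaled by the group's total UMIs to CPM, a relative abundance, and log2 ratios used rows with at least 50 CPM in either group and a prior of 1 CPM. The root mean square log2 ratio, after removing the part expected from Poisson counting, was 0.25 to Foxp3lo TRP cells, 0.44 to cluster 1 and 0.64 to cluster 2. In cells of 1500 to under 2500 UMIs it was 0.30, 0.40 and 0.66, in the same order. The order held under each alternative setting that gives this value; under the mean of the authors' normalized values, which does not, the root mean square before that correction had the same order. The Foxp3lo TRP cells of cluster 0 stood further from cluster 1, at 0.56, and from cluster 2, at 0.75, than the members did. To the other populations of cluster 0 the members' value was 0.30 for CD25+ TRP, 0.40 for CD73+ Treg and 0.46 for CD73- Treg cells.

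Few gene rows passed a 2-fold ratio against the Foxp3lo TRP cells: 20 of 3049 were higher in members (0.656%) and 27 lower (0.886%). Against cluster 1, 85 of 3015 were higher (2.82%) and 50 lower (1.66%), and against cluster 2, 147 of 3230 were higher (4.55%) and 168 lower (5.2%). Under median of ratios scaling, 14 rows were higher and 36 lower against the Foxp3lo TRP cells, and 45 were higher and 77 lower against cluster 1, so the direction of the split against cluster 1 rests on the scaling. That scaling moved the median log2 ratio over all rows against cluster 1 from 0.12 to -0.06.

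The rows carry no gene names, so no gene could be named and neither the CD4 SP label nor the marker lists could be checked by gene. The row with the lowest ratio to Foxp3lo TRP cells, -4.95 on the log2 scale, held 4 UMIs in members, 10.3 CPM (exact Poisson interval 2.81 to 26.4), and 569 in Foxp3lo TRP cells, 350 CPM (321 to 380). It was at 6.59 CPM in cluster 1, 2.75 CPM in cluster 2 and 5.46 CPM in all DP cells, and at 535 CPM in all CD73- Treg and 456 CPM in all CD73+ Treg cells. Within cluster 0 it was at 51.1 CPM in CD25+ TRP cells. The row was picked for its ratio and passed the CPM limit through the Foxp3lo TRP cells, so its values are a description. The row with the highest ratio to Foxp3lo TRP cells was at 103 CPM in members and 26.4 CPM in those cells, and at 295 CPM in cluster 1 and 511 CPM in cluster 2. The row with the highest ratio to cluster 1, picked in the same way, was at 67.0 CPM in members, 109 CPM in Foxp3lo TRP cells, 2.43 CPM in cluster 1 and 8.24 CPM in cluster 2. In smaller CD4 SP clusters it was at 109 CPM in cluster 5 and 47.2 CPM in cluster 12.

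**Figure D5:**
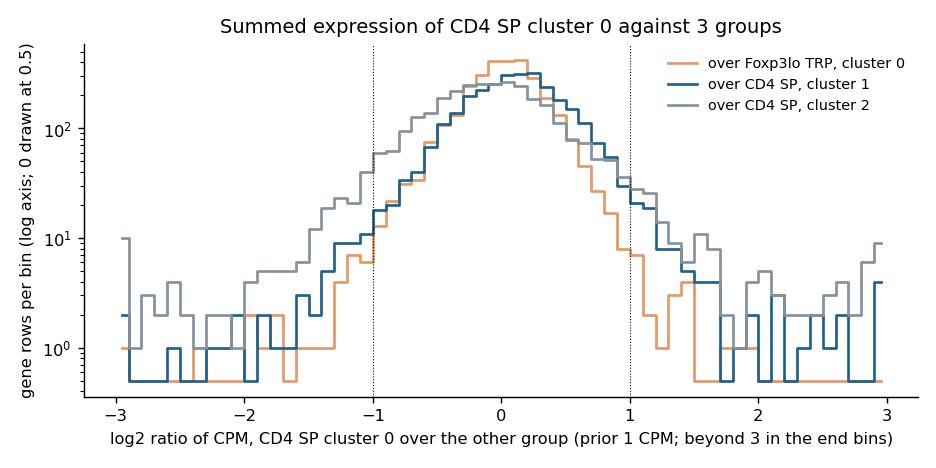
Number of gene rows (vertical log axis) by log2 ratio of CPM in members over each of 3 groups (horizontal axis), with dotted lines at the 2-fold limits. The distribution is narrowest against Foxp3lo TRP cells of cluster 0, where 20 rows lie above 2-fold and 27 below.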

How the data were processed

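Gene expression, hashtag and TCR libraries were made from the same cells, per the labels' protocols. The deposited files hold raw UMI counts for 12208 cells and 14790 unnamed gene rows, and the authors' normalized values. The authors' normalized values are natural log values, equal to the log of 1 plus counts per 10000, as tested on the deposited counts. The deposited cell table gives hashtag and cluster as other, categorical values, and the contig table gives V, J, CDR3 and counts of reads and UMIs. Cell Ranger 3.1.0, Seurat 3.1.1, mm10 and GRCm38 are listed in the submitters' processing notes; what each did, the cell filters and the treatment of doublets are not stated there, and no doublet caller was run. Of 12208 barcodes 7379 were also in the contig table, among them 132 of 203 members. No column was left out as belonging to no sample.

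The unit of counting was the cell with exactly 1 productive α chain. Shares carry exact Clopper-Pearson 95% intervals (scipy 1.17.1); the summing and ratio code was tested on simulated data. J and V germline sequences and coordinates came from GENCODE annotation of GRCm38. Depth per group was 387899 UMIs in members, 1627488 in Foxp3lo TRP cells, 2881326 in cluster 1 and 2548706 in cluster 2. Named segments were the 5 that members used most and each one apart in any of 3 comparisons; named CDR3s were those in 4 or more members and the 3 most frequent of each comparison group. Members and lists were chosen with earlier results of these data known. The marker lists could not be used, since rows have no names. Alternatives were other clonotype definitions, chain choices, scalings, filters and depth limits; comparisons in cells of 1500 to under 2500 UMIs or without the most frequent CDR3 were added after seeing the data.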

Additional observations from a re-analysis of the deposited data

How the results depend on the processing

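The limits lie in 132 member chains and 1 sample per population. TRAJ13 use in members was 19.7% and ranged from 10.9% without the frequent TRAJ13 CDR3, or 11.7% with each different CDR3 counted a single time, to 21.3% at 1500 to under 2500 UMIs. TRAJ segments apart from Foxp3lo TRP cells went from 1 to 0, and from cluster 1 from 2 to 1, with each different CDR3 counted a single time. At 1500 to under 2500 UMIs both were 0, and without the frequent TRAJ13 CDR3 the count against Foxp3lo TRP cells was 0. The TRAV genes apart from cluster 1 went from 2 to 0 or 1.

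Morisita's index was 0.516 with Foxp3lo TRP cells and 0.314 with cluster 1 without the 10 most frequent CDR3s, 0.319 with cluster 1 by nucleotide sequence, V and J, 0.374 with cluster 1 without the frequent TRAJ13 CDR3 and 1.01 with cluster 1 at 1500 to under 2500 UMIs. Jaccard's index, on another scale, was 0.0667, 0.0533 and 0.0548 for Foxp3lo TRP cells, cluster 1 and cluster 2. By nucleotide sequence, V and J, the share of members with a clonotype of CD25+ TRP cells was 35.6%, of any Treg cell 13.6% and of Foxp3lo TRP cells of cluster 0 18.2%. Without the 10 most frequent CDR3s the last 2 were 25.4% and 22.8%, and with each different CDR3 counted a single time 26.1% and 23.4%. Recovery of the α chain was 73.4% at 1500 to under 2500 UMIs. All 24 alternative values of summed expression stayed within 1.5-fold. In all, 91 of 118 alternatives stayed within their limits: the main value's 95% interval, the quartiles for depth, or 1.5-fold. This tally does not measure robustness, because some alternatives could not move. No member had a second α chain, a chain of 1 UMI or a V outside TRAV14, so choices on these left member TRAJ13 use unchanged. A count of 0 segments apart that stayed at 0 was also scored as within limits. Where a value moved, the cause was not tested. No paired analysis was possible because each population was 1 sample.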

Other observations

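Beside α chains, a TRBV19 contig was read in 16 of 203 members, 7.88% (exact 95% interval 4.57 to 12.5), in 9.37% of Foxp3lo TRP cells of cluster 0, in 15.2% of CD4 SP cells of cluster 1 (12.97 to 17.7) and in 15.9% of cluster 2 (13.6 to 18.5). Contigs of other β segments were read in 4.93% of members, 3.42%, 7.18% and 7.47%. Productive and nonproductive β contigs were counted alike. These shares give how often a contig was read and not how many cells carried the chain. A nonproductive α contig was read in 2 members, 0.985% (0.1195 to 3.51), and in 4.93% of cluster 1 cells (3.63 to 6.52). The share was 1.52% in Foxp3lo TRP cells of cluster 0 (0.787 to 2.64) and 2.42% in cluster 2 (1.52 to 3.64). Both intervals overlapped that of the members. All these contig shares were taken at unmatched depth, and the part of depth was not tested.

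Of 111 different member CDR3s, 45 were found in no other cell and 5 were found in all 6 sorted populations outside the members, and these 5 were carried by 17 of 132 member cells.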
